A study of Homo sapiens with 12 samples.

Results

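CCL2, CCL7, CCL8 and CCL13 encode the monocyte chemoattractant proteins, a set of CC chemokines whose genes lie side by side on human chromosome 17 and which act mainly through the receptor CCR2. They are 4 of the 57992 gene rows of a table of read counts, and all 4 passed the filter on low counts, which left 16022 genes for testing. The set was chosen from earlier results of the same libraries, in which CCL13 and CCL2 were among the largest differences between knockout and wild-type cells and the response of CCL2 to lipopolysaccharide was known. For that reason the values of the 4 chemokines are given as a description, with fitted log2 fold changes and standard errors and with no p-value.

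RNA was sequenced from 12 libraries of induced microglia-like cells (iMGLs), cultured cells that resemble the resident macrophages of the brain and were grown out of H1, a human pluripotent line. The groups are MEF2C knockout cells given lipopolysaccharide (LPS) together with the compound BMS265246 (KO LPS BMS, 2 libraries), knockout cells given LPS (KO LPS, 2 libraries), wild-type cells given LPS (WT LPS, 2 libraries), knockout cells without LPS (KO, 3 libraries) and wild-type cells without LPS (WT, 3 libraries). MEF2C is a transcription factor of microglia and other cells, LPS is a bacterial cell wall component sensed through TLR4, and the title of the series describes the compound as a CDK2 inhibitor. The compound was given only to knockout cells and only with LPS, and the labels do not state the doses, the times, the kind of edit or the number of clones. Nothing says whether the libraries of a group came from separate differentiations, so the errors below cover these libraries alone. The SD is the spread within a group, while the standard error (SE) comes from the fit, which pools its spread over genes and groups.

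Monocyte chemoattractants are small secreted proteins that draw monocytes, and to differing degrees T cells, basophils and eosinophils, along a gradient into tissue. CCL2 is the best studied and signals mainly through CCR2. CCL7 also binds CCR1 and CCR3, CCL8 also binds CCR1, and CCL13 also binds CCR3. In the inflamed brain CCL2 comes from microglia, astrocytes and endothelial cells and recruits monocytes from the blood. Its transcription is a textbook target of NF-kB and AP-1 downstream of TLR4.

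The 4 genes lie on the forward strand within 103.4 kb of chromosome 17 (GRCh38, GENCODE release 29). They are CCL2 (ENSG00000108691) at chr17:34255218-34257203, CCL7 (ENSG00000108688) at chr17:34270221-34272242, CCL8 (ENSG00000108700) at chr17:34319036-34321402 and CCL13 (ENSG00000181374) at chr17:34356452-34358610. The gaps between them are 13017, 46793 and 35049 bases, the only other protein-coding gene between them is CCL11, and no annotated gene overlaps any of them. Their coding sequences, of 294 or 297 bases, were 75.8% to 79.1% identical in pairwise alignment, with exact shared stretches of at most 19 to 23 bases. Counts of such relatives can be uncertain where reads fit more than 1 of them, and the labels do not state how such reads were treated.

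The promoters are shown because the members shared some responses and not others. The 250 bases before the RefSeq transcription start (GRCh38.p14, forward strand) were at hand for 3 of the 4 genes, and matches of the motifs searched are in capitals.
CCL7, chr17:34269971-34270220: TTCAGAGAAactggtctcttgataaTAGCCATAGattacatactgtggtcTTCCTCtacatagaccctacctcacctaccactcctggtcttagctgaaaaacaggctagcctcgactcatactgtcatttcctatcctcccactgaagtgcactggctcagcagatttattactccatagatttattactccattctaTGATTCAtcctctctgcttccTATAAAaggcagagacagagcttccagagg
CCL8, chr17:34319185-34319434: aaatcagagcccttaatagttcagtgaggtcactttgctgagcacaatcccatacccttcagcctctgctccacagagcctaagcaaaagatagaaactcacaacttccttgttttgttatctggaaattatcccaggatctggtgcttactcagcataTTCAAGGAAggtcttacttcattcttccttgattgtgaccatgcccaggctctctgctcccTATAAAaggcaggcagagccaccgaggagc
CCL13, chr17:34356230-34356479: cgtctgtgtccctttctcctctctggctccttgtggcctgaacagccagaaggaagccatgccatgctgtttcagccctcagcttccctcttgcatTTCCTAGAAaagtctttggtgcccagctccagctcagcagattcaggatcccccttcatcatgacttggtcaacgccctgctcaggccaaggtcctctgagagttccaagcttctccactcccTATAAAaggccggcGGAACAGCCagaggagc

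The motifs, searched on both strands, were NF-kB GGNNNTTCC, AP-1 TGANTCA, C/EBP TTNNGNAA, GAS (the STAT motif) TTCNNNGAA, ISRE GAAANNGAA, Sp1 GGGCGG, MEF2 CTANNNNTA, PU.1 GAGGAA and, for the TATA box, TATAAA. All 3 promoters held TATAAA, which began 30 bases before the start in CCL7 and CCL8 and 31 bases before it in CCL13, and which was in 10.7% of the 35116 promoters of the same length. The 12 bases cctataaaaggc around it are the longest run that these 3 windows share. They were in 4 promoters of the 35116 (0.0114%), those of CCL7, CCL8, CCL13 and TCHH, of which the first 3 hold it by that choice. CCL8 and CCL13 shared 15 bases, ctccctataaaaggc. A GAS match was in all 3 (6.57% of promoters), beginning 250, 91 and 154 bases before the start in CCL7, CCL8 and CCL13. CCL7 alone of the 3 held matches to AP-1 (6.57%), MEF2 (14.6%) and PU.1 (23.6%), and CCL13 alone held one to NF-kB (17.1%), GGAACAGCC on the reverse strand from 17 to 9 bases before the start. C/EBP (33.2%), ISRE (6.88%) and Sp1 (42.6%) had no match in these windows. The RefSeq start of CCL8 lies 399 bases downstream of the GENCODE gene start, and that of CCL13 lies 28 bases downstream. A match describes the letters and does not show that a factor binds.

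Library totals were 13888283 to 17639136 counts, and 3 counts, the limit that a count of 0 allows, corresponded to 0.154 to 0.236 CPM. These are counts scaled to a common library size with TMM factors, and the limit takes in counting error alone. MEF2C RNA was present in every knockout library and averaged 133 ± 4.01 CPM in KO cells (SD, n = 3) and 184 ± 7.86 CPM in WT cells (SD, n = 3). The log2 fold change was -0.47 ± 0.05 (edgeR adjusted p = 4.00e-07). With LPS, MEF2C averaged 43.9 ± 0.255 CPM in KO LPS BMS, 46.4 ± 0.618 CPM in KO LPS and 50.6 ± 1.43 CPM in WT LPS (SD, n = 2 each), and KO LPS vs WT LPS did not pass, at -0.13 ± 0.07 (edgeR adjusted p = 0.187). MEF2C RNA fell with LPS by 1.86 ± 0.06 in wild-type and by 1.52 ± 0.06 in knockout cells (edgeR adjusted p = 9.97e-17 and 6.57e-15). The cells labelled knockout are named by that label throughout. Scaling by library totals alone moved the median of all genes by -0.29 in WT LPS vs WT, -0.25 in KO LPS vs KO and -0.34 in KO LPS BMS vs KO (log2), so small changes with LPS are read against that shift. In those comparisons the share of calls that were higher was 26.7%, 25.5% and 26.1% under library totals, against 48.4%, 54.7% and 48.4% under TMM.

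Microglial markers were expressed in every group, with summed levels of 4779 to 5137 CPM in KO LPS BMS, 4315 to 4587 CPM in KO LPS, 4548 to 4991 CPM in WT LPS, 4841 to 4950 CPM in KO and 5305 to 5455 CPM in WT. SALL1, a defining factor of microglia, was too low to be tested. Markers of monocytes and border macrophages summed to 6261 to 6516 CPM in KO LPS BMS, 5547 to 5675 CPM in KO LPS, 3885 to 3967 CPM in WT LPS, 5902 to 5967 CPM in KO and 3982 to 4051 CPM in WT. That list was thus higher in all knockout libraries than in all wild-type libraries, with and without LPS. In a bulk sample, more cells of a type and more RNA per cell cannot be told apart.

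**Figure D1:**
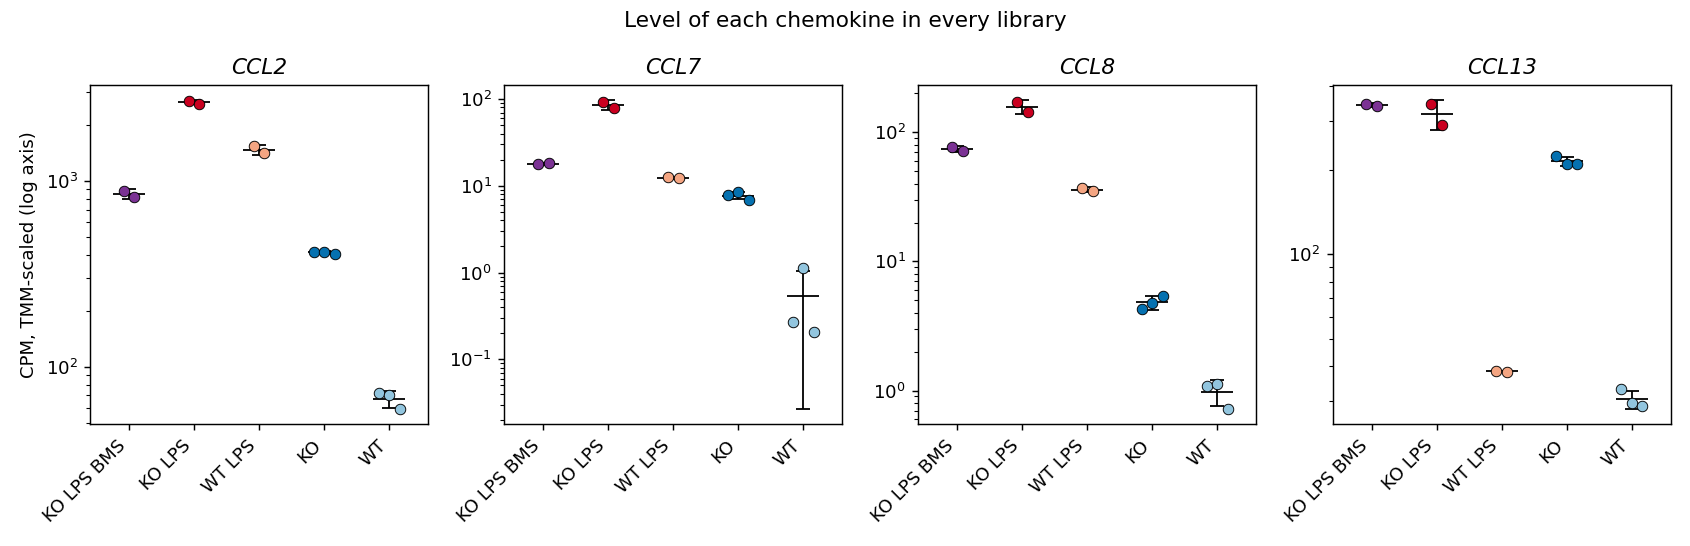
Level of each chemokine in every library, in TMM-scaled CPM on a log axis, by group. Points are libraries, the wide tick is the group mean and the bar is 1 SD. CCL2, CCL7 and CCL8 peak in KO LPS, while CCL13 is high in all 3 knockout groups and low in both wild-type groups.

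CCL2 was the most abundant of the 4 in raw counts and stood at a different level in each group. Its level was 886 and 814 CPM in KO LPS BMS, 2686 and 2599 CPM in KO LPS, 1529 and 1401 CPM in WT LPS, 415, 415 and 404 CPM in KO, and 72.2, 70.0 and 59.3 CPM in WT. No pair of groups overlapped, and the order from the highest was KO LPS, WT LPS, KO LPS BMS, KO and WT. Groups without overlap are common in these libraries: the share of all tested genes was 72.3% in WT LPS vs WT, 62.0% in KO LPS vs KO and 76.2% in KO LPS BMS vs KO. The group means were 850 ± 51.0 CPM in KO LPS BMS, 2642 ± 61.5 CPM in KO LPS, 1465 ± 90.5 CPM in WT LPS (SD, n = 2 each), 411 ± 6.34 CPM in KO and 67.2 ± 6.91 CPM in WT (SD, n = 3 each).

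CCL7, a ligand of CCR1, CCR2 and CCR3, was near the detection limit in unstimulated wild-type cells. Its level was 17.7 and 18.1 CPM in KO LPS BMS, 93.6 and 78.8 CPM in KO LPS, 12.7 and 12.2 CPM in WT LPS, 7.94, 8.39 and 6.88 CPM in KO, and 0.270, 1.13 and 0.206 CPM in WT. The WT values rest on 5, 22 and 4 counts, so that WT replicate 2 stood 4 times or more above the others of its group in counts. No pair of groups overlapped, and the order was KO LPS, KO LPS BMS, WT LPS, KO and WT.

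CCL8, a ligand of CCR2 that also engages CCR1, was low without LPS in both genotypes. It stood at 77.3 and 71.8 CPM in KO LPS BMS, 170.9 and 144 CPM in KO LPS, 37.1 and 34.8 CPM in WT LPS, 4.26, 4.75 and 5.43 CPM in KO, and 1.08, 1.13 and 0.721 CPM in WT. The WT counts were 20, 22 and 14. The groups did not overlap and had the same order as for CCL7.

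CCL13, a ligand of CCR2 and CCR3, followed genotype more than stimulus. Its level was 344.5 and 338 CPM in KO LPS BMS, 344 and 290.3 CPM in KO LPS, 38.3 and 38.2 CPM in WT LPS, 224, 210.1 and 211 CPM in KO, and 33.0, 29.4 and 28.7 CPM in WT. KO LPS BMS and KO LPS overlapped, and below them KO, WT LPS and WT followed without overlap. Unstimulated knockout cells thus had more CCL13 RNA than wild-type cells given LPS, the reverse of the order for the other members.

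KO LPS replicate 1 was higher than KO LPS replicate 2 for all 4 genes, and this pair differed more than any other pair of replicates over all genes, with a chi-square per degree of freedom of 12.2 against 2.1 to 7.65. Differences that rest on the KO LPS group are therefore given without 1 library where that matters.

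The comparison of KO with WT cells sets the genotypes side by side without LPS. All 4 chemokines were higher in every KO library than in every WT library, beside 40.4% of all tested genes whose groups did not overlap, in either direction. CCL2 was higher by a log2 fold change of 2.61 ± 0.06, CCL8 by 2.30 ± 0.19 and CCL13 by 2.82 ± 0.07 (± SE). For CCL7 the value was 3.82 ± 0.31 with all libraries and 4.98 without WT replicate 2. All 4 were called higher (adjusted p under 0.05) and 0 lower, beside 10.2% of all genes called higher and 11.4% called lower, and since the set was chosen on this contrast nothing is read from that count. The median over the 4 was 2.72, beside -0.015 over all genes tested.

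Marker lists moved in the same comparison, where 10.2% of all genes were called higher and 11.4% lower. Of 16 markers of monocytes and border macrophages, 13 were higher in KO, 1 was lower and 2 did not pass, with a median log2 fold change of 0.746. They include S100A9, a calcium-binding alarmin of monocytes and neutrophils, at 1.75 ± 0.05 (edgeR adjusted p = 3.05e-16), F13A1, a coagulation factor subunit of macrophages, at 2.26 ± 0.10 (edgeR adjusted p = 2.27e-13) and CCR2 as the one that was lower. Of 13 microglial markers tested, 1 was higher, 6 lower and 6 did not pass, with a median of -0.123, TREM2, a lipid-sensing receptor, at 0.24 ± 0.06 (edgeR adjusted p = 0.00485) and the fractalkine receptor CX3CR1 at -0.51 ± 0.06 (edgeR adjusted p = 8.14e-07). Granulocytic and mast cell markers were higher for 4 of 5 tested, with MPO, ELANE, AZU1 and PRTN3 too low to test, and endothelial markers for 3 of 6. The granulocytic and mast cell list summed to 404 to 423 CPM in KO and 323 to 331 CPM in WT. Within it CPA3 was at 167 to 187 CPM in KO and 138 to 150 CPM in WT. HDC was at 173 to 177 CPM in KO and 131 to 146 CPM in WT. Of 6 mesenchymal markers 0 passed in either direction. Of 2 pluripotency markers tested SALL4 was higher, at 1.32 ± 0.32 (edgeR adjusted p = 0.00430), while POU5F1, NANOG, LIN28A and DPPA4 were too low to test. No marker was at 0 in all 12 libraries. The part of these marker lists in the chemokine differences was not tested.

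**Figure D2:**
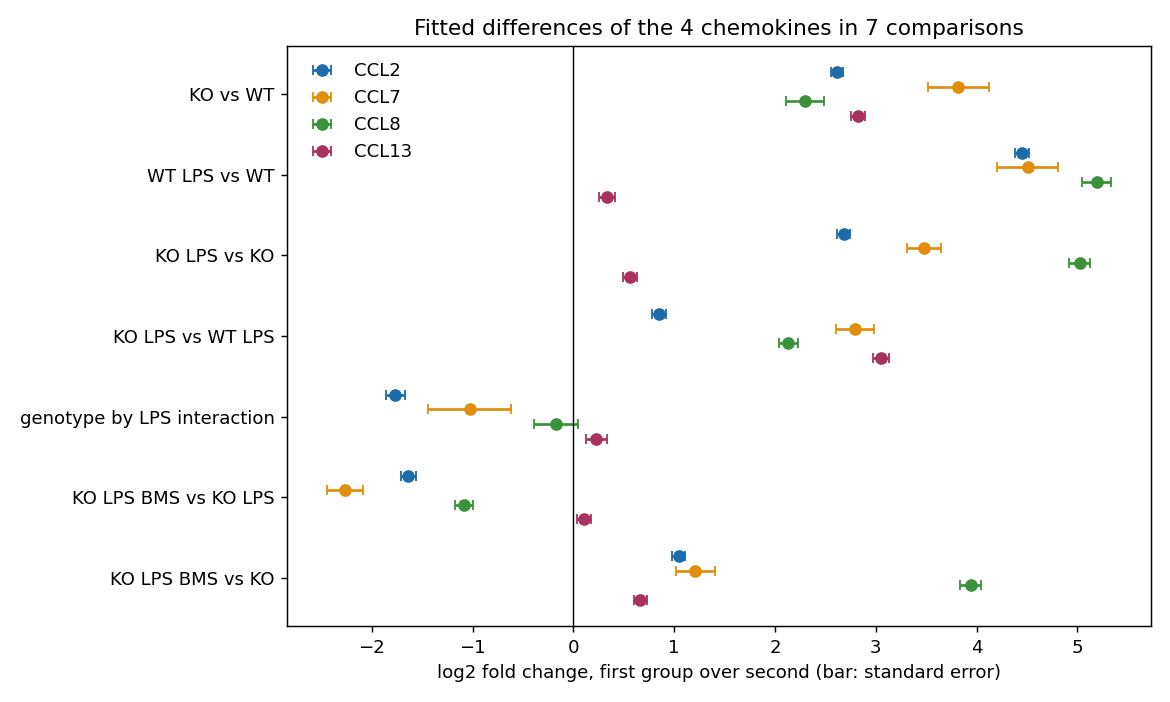
Fitted log2 fold changes of the 4 chemokines in 7 comparisons, first group over second, with bars of 1 SE. CCL13 lies close to 0 in both LPS responses and for the compound, but at 2.82 and 3.05 between the genotypes.

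The response to LPS was measured within each genotype. In wild-type cells CCL2 was higher in WT LPS than in WT by 4.45 ± 0.07, CCL8 by 5.19 ± 0.14 and CCL7 by 4.51 ± 0.30, which was 5.67 without WT replicate 2. CCL13 differed by only 0.33 ± 0.08, and by 0.05 when libraries were scaled by their totals alone, where it no longer passed the threshold. In WT LPS vs WT all 4 were called higher and 0 lower, beside 28.9% of all genes called higher and 30.8% lower, and the median of the 4 was 4.48 beside -0.072 over all genes.

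In knockout cells CCL8 was higher in KO LPS than in KO by 5.02 ± 0.10, CCL7 by 3.48 ± 0.17 and CCL2 by 2.68 ± 0.06. CCL13 was higher by 0.56 ± 0.07, or by 0.31 with library totals alone. All 4 were called higher and 0 lower, beside 24.5% of all genes called higher and 20.3% lower, and the median of the 4 was 3.08 beside -0.004 over all genes. CCL8 had the largest LPS difference of the 4 in both genotypes, save that CCL7 exceeded it in wild-type cells without WT replicate 2, and CCL13 had the smallest. Of 16 monocyte and border macrophage markers, 7 were higher and 6 lower in WT LPS vs WT, and 5 were higher and 8 lower in KO LPS vs KO.

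With LPS alone in both genotypes, all 4 were higher in both KO LPS libraries than in both WT LPS libraries, and 59.9% of all tested genes did not overlap between these groups in either direction. CCL13 was higher in KO LPS than in WT LPS by 3.05 ± 0.08, CCL7 by 2.79 ± 0.18, CCL8 by 2.13 ± 0.09 and CCL2 by 0.85 ± 0.07. In folds, CCL13 was 8.29 times and CCL2 1.80 times its level in WT LPS. All 4 were called higher and 0 lower, beside 15.6% of all genes called higher and 15.0% lower, and nothing is read from that count either, since the set was chosen on its genotype difference. The median of the 4 was 2.46 beside 0.03 over all genes. Of the 16 monocyte and border macrophage markers 10 were higher in KO LPS than in WT LPS, 2 were lower and 4 did not pass. Their part in the chemokine differences was not tested.

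The genotype by LPS interaction compares the LPS response of knockout cells with that of wild-type cells. It was -1.76 ± 0.09 for CCL2, whose LPS difference was 6.43-fold in knockout and 21.8-fold in wild-type cells. For CCL7 it was -1.03 ± 0.41 and ranged from -2.19 without WT replicate 2 to -0.64 without WT replicate 3. For CCL8 it was -0.17 ± 0.22 and for CCL13 0.23 ± 0.10. CCL2 was called lower, 0 members were called higher and the other 3 did not pass, beside 6.42% of all genes called higher and 5.57% lower. The call of CCL7 depended on the method and the libraries, and CCL13 passed without KO LPS replicate 2, at 0.35. The smaller CCL2 response went with a higher starting level, 411 CPM in KO against 67.2 CPM in WT, and the absolute gain with LPS was larger in knockout cells.

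LPS with BMS265246 was compared with LPS alone in knockout cells. CCL7 was lower in KO LPS BMS than in KO LPS by a log2 fold change of -2.27 ± 0.18, CCL2 by -1.64 ± 0.07 and CCL8 by -1.08 ± 0.09, with no overlap between the groups. Over all tested genes 70.4% did not overlap in this comparison, in either direction. CCL13 differed by 0.11 ± 0.07, and this value was -0.01 without KO LPS replicate 2 and 0.27 without KO LPS replicate 1, where it passed the threshold. Of the 4, 0 were called higher, 3 lower and 1 did not pass, beside 22.3% of all genes called higher and 25.5% lower. The median of the 4 was -1.36 beside -0.036 over all genes. Of the monocyte and border macrophage markers, 6 were higher, among them the lysozyme gene LYZ at 0.60 ± 0.06 (edgeR adjusted p = 1.05e-07), and 6 were lower, among them S100A9 at -1.07 ± 0.06 (edgeR adjusted p = 1.05e-11).

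Set against unstimulated knockout cells, the KO LPS BMS libraries still held more of every member. CCL8 was higher than in KO by 3.94 ± 0.11, CCL7 by 1.21 ± 0.19, CCL2 by 1.05 ± 0.06 and CCL13 by 0.67 ± 0.07, or by 0.33 for CCL13 with library totals alone. All 4 were called higher and 0 lower, beside 30.3% of all genes called higher and 32.4% lower. The median of the 4 was 1.13 beside -0.057 over all genes. The levels of KO LPS BMS stood below WT LPS for CCL2 and above it for CCL7, CCL8 and CCL13.

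Across the 12 libraries the log levels of CCL2, CCL7 and CCL8 ran together, with Pearson's r of 0.958 for CCL2 and CCL7, 0.947 for CCL2 and CCL8 and 0.926 for CCL7 and CCL8. CCL13 was less like them, at 0.592 with CCL2, 0.744 with CCL7 and 0.621 with CCL8. These are descriptions over libraries of 5 groups, which share the group differences.

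The sum of the 4 levels was 1283 ± 59.4 CPM in KO LPS BMS, 3203 ± 129 CPM in KO LPS, 1552 ± 92.6 CPM in WT LPS (SD, n = 2 each), 639 ± 12.2 CPM in KO and 99.0 ± 9.07 CPM in WT (SD, n = 3 each). Its make-up was compared per kilobase of annotated exon. CCL2 made up 46.3% to 47.8% of the length-scaled sum in KO LPS BMS, 67.6% to 70.5% in KO LPS, 89.1% to 89.6% in WT LPS, 43.1% to 44.5% in KO and 46.3% to 49.0% in WT. CCL13 made up 43.4% to 44.9% in KO LPS BMS, 18.4% to 20.2% in KO LPS, 5.24% to 5.66% in WT LPS, 52.6% to 54.3% in KO and 48.0% to 52.4% in WT. LPS thus went with a larger CCL2 share in both genotypes, and the CCL2 and CCL13 shares of KO LPS BMS lay nearer to those of unstimulated cells than to those of KO LPS.

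CCL8 held 6.44% to 6.57% in KO LPS BMS, 6.16% to 6.78% in KO LPS, 3.42% to 3.49% in WT LPS, 0.696% to 0.929% in KO and 0.887% to 1.25% in WT. CCL7 held at most 5.42%, in KO LPS. The exon union of CCL2, 1986 bases, covers its introns, whereas its coding transcript has 741 bases. Scaled to the coding transcript, an alternative chosen after seeing the data, CCL2 exceeded CCL13 in every library, with 67.0% to 68.2% in KO and 69.8% to 72.0% in WT. Which of CCL2 and CCL13 was the larger in unstimulated cells therefore depended on the length used, while the rise of the CCL2 share with LPS did not.

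**Figure D3:**
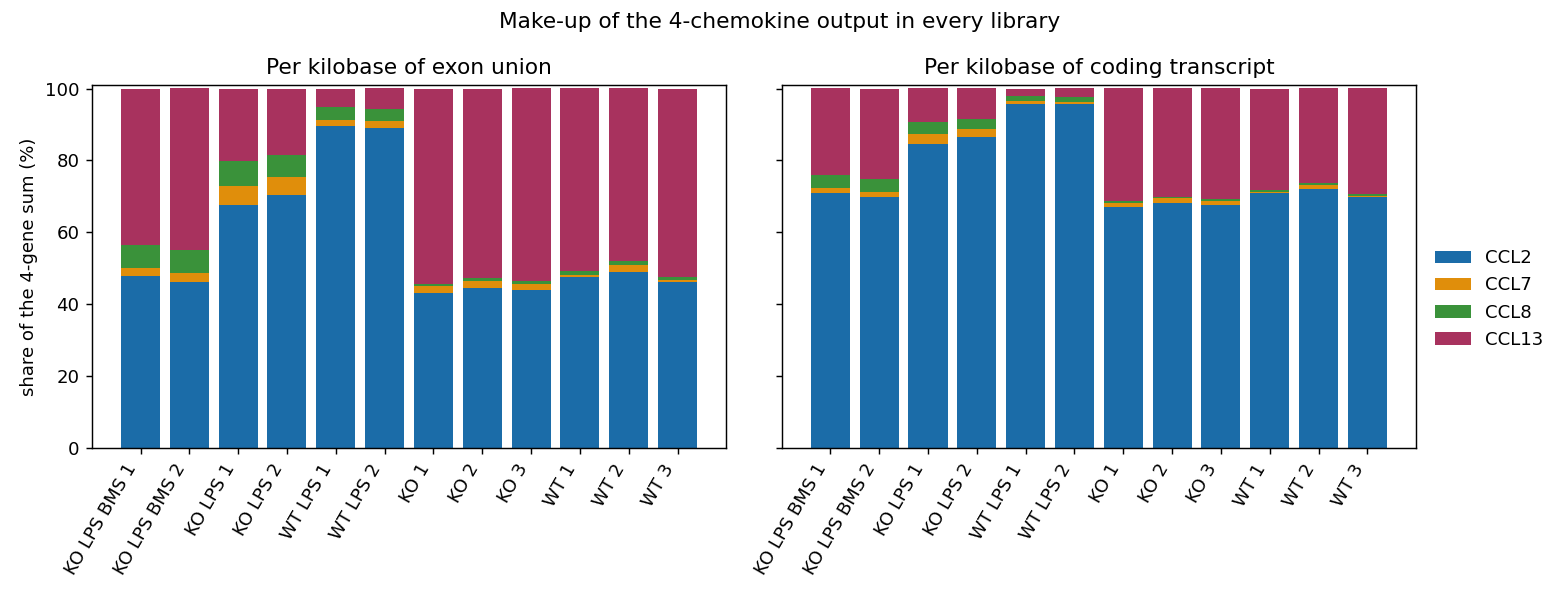
Share of each chemokine in the length-scaled sum of the 4, for every library, with the exon union (left) or the coding transcript (right) as length. The share of CCL13 is lower in WT LPS than in any other group under both lengths.

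RNA of the receptors of these ligands was present in the same libraries, which does not show that the same cells held both. In KO vs WT, 1 of 7 receptors and scavengers was higher, 2 lower and 4 did not pass, with a median of 0.06, beside 10.2% of all genes called higher and 11.4% lower. CCR2, the shared receptor, was at 20.4 and 18.3 CPM in KO LPS BMS, 32.5 and 27.8 CPM in KO LPS, 59.3 and 65.1 CPM in WT LPS, 39.4, 37.2 and 39.8 CPM in KO, and 56.0, 49.2 and 55.4 CPM in WT. It was lower in every knockout group than in either wild-type group.

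CCR2 changed by -0.46 ± 0.07 in KO vs WT (edgeR adjusted p = 5.61e-05), by -1.04 ± 0.09 in KO LPS vs WT LPS (edgeR adjusted p = 2.28e-08) and by -0.64 ± 0.10 in KO LPS BMS vs KO LPS (edgeR adjusted p = 2.77e-05). Its interaction was -0.58 ± 0.12 (edgeR adjusted p = 0.00246). In KO LPS vs KO the value was -0.36 ± 0.09 (edgeR adjusted p = 0.00170), which did not pass without KO LPS replicate 2. In WT LPS vs WT it was 0.22 ± 0.08 (edgeR adjusted p = 0.0240), which did not pass without WT LPS replicate 2 or WT replicate 2 and turned its direction with library totals alone. CCR2 is also one of the monocyte markers above.

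CCR1, which binds CCL7 and CCL8, averaged 648 CPM in KO LPS BMS, 632 CPM in KO LPS, 668 CPM in WT LPS, 542 CPM in KO and 488 CPM in WT. Its rise of 0.15 ± 0.04 in KO vs WT (edgeR adjusted p = 0.0112) did not pass without WT replicate 2 or 3, and its rise of 0.22 ± 0.05 in KO LPS vs KO (edgeR adjusted p = 0.000470) turned its direction with library totals alone. In WT LPS vs WT the rise of CCR1 was larger, at 0.45 ± 0.05 (edgeR adjusted p = 2.07e-08).

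CCR3, which binds CCL7 and CCL13, averaged 8.18 CPM in KO LPS BMS, 10.6 CPM in KO LPS, 6.13 CPM in WT LPS, 16.1 CPM in KO and 15.5 CPM in WT. It fell by 1.33 ± 0.13 in WT LPS vs WT (edgeR adjusted p = 5.95e-09) and by 0.61 ± 0.12 in KO LPS vs KO (edgeR adjusted p = 0.000168). CCRL2, an atypical receptor-like protein, rose in both LPS responses, by 0.89 ± 0.09 in wild-type and 1.10 ± 0.09 in knockout cells (edgeR adjusted p = 2.31e-08 and 8.99e-10), and fell by 0.42 ± 0.10 with the compound (edgeR adjusted p = 0.00115). The scavenger ACKR1 was at 1.78 CPM or below in every library and had 0 counts in the 3 WT libraries, and the scavenger ACKR2 was at 3.97 CPM or below. With the compound 0 of the 7 were called higher, 5 lower and 2 did not pass (median -0.422), beside 22.3% and 25.5% of all genes, and the call of CCR3 among them (-0.36 ± 0.14, edgeR adjusted p = 0.0382) ended under 8 alternatives, among them DESeq2 and leaving out KO LPS BMS replicate 1 or either KO LPS library.

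**Figure D4:**
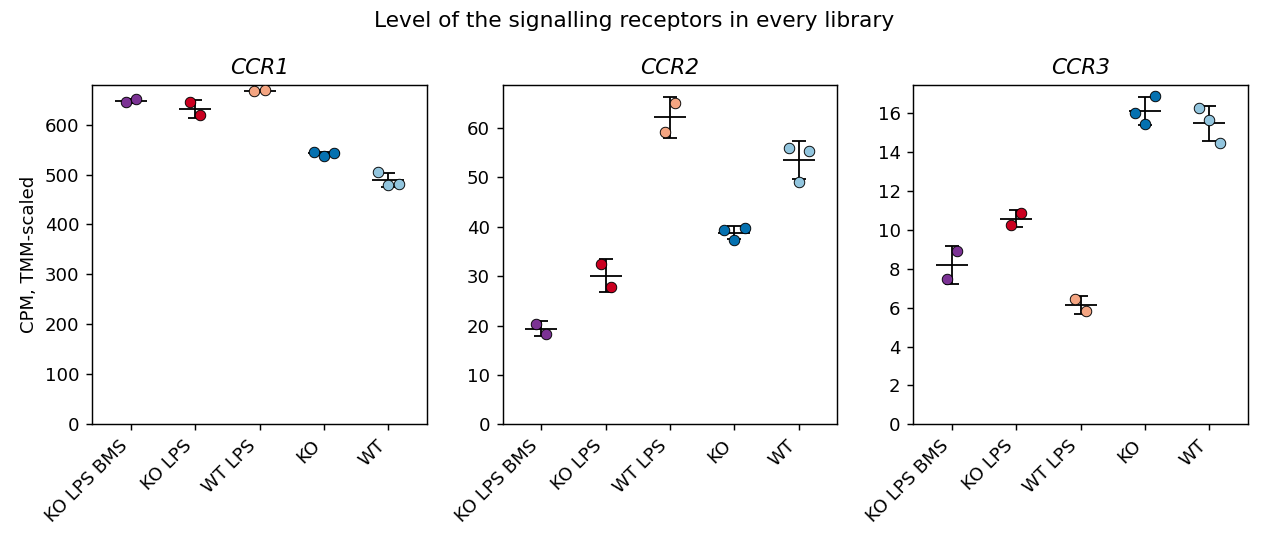
Level of the signalling receptors CCR1, CCR2 and CCR3 in every library, in TMM-scaled CPM on a linear axis from 0. Points are libraries, the wide tick is the group mean and the bar is 1 SD. CCR2 is lower in all knockout libraries than in all wild-type libraries.

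The chemokines carry an N-terminal glutamine that glutaminyl cyclases close into pyroglutamate, while DPP4 and matrix metalloproteinases trim that end. DPP4 averaged 60.9 CPM in KO LPS BMS, 39.7 CPM in KO LPS, 27.8 CPM in WT LPS, 46.8 CPM in KO and 32.5 CPM in WT. It was higher in KO vs WT by 0.53 ± 0.07 (edgeR adjusted p = 4.00e-06), in KO LPS vs WT LPS by 0.52 ± 0.09 (edgeR adjusted p = 0.000124) and in KO LPS BMS vs KO LPS by 0.62 ± 0.08 (edgeR adjusted p = 3.04e-06). QPCT, the secreted cyclase, averaged 12.4 CPM in KO LPS BMS, 13.7 CPM in KO LPS, 11.8 CPM in WT LPS, 6.96 CPM in KO and 4.64 CPM in WT, and rose with LPS by 1.35 ± 0.15 in wild-type and 0.98 ± 0.14 in knockout cells (edgeR adjusted p = 7.71e-08 and 5.79e-06). QPCTL, the Golgi cyclase, fell in the same comparisons by 1.16 ± 0.16 and 0.72 ± 0.16 (edgeR adjusted p = 1.30e-06 and 0.000694) and rose by 0.73 ± 0.17 in KO LPS BMS vs KO LPS (edgeR adjusted p = 0.00153).

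Among the metalloproteinases, MMP14 rose with LPS by 0.89 ± 0.07 in wild-type and 1.19 ± 0.07 in knockout cells (edgeR adjusted p = 5.43e-08 and 3.17e-09) and fell by 0.36 ± 0.08 in KO LPS BMS vs KO LPS (edgeR adjusted p = 0.00191). MMP2, which removes the first residues of CCL7, fell by 0.84 ± 0.10 in KO vs WT (edgeR adjusted p = 2.25e-05). MMP12, a macrophage elastase, rose by 0.36 ± 0.06 in KO vs WT (edgeR adjusted p = 5.11e-05). MMP1, a collagenase, rose with LPS in both genotypes, by 3.25 ± 0.36 in wild-type and 3.79 ± 0.38 in knockout cells (edgeR adjusted p = 3.45e-05 and 2.31e-05), and MMP3 was too low to test. Of the 8 enzymes 7 were tested, and 3 were higher, 2 lower and 2 did not pass in KO vs WT, with a median of -0.296. Of all genes 10.2% were called higher and 11.4% lower in that comparison.

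Lists of known regulators of these chemokines held called genes in KO vs WT, some in both directions and some only lower. In that comparison 10.2% of all genes were called higher and 11.4% lower. The list called NF-kB inhibitors held NFKBIA, NFKBIB, NFKBIE, NFKBIZ, TNFAIP3, TNIP1 and TNIP3, and the role of each was not tested. Of these 7 genes 0 were higher in KO than in WT, 4 were lower and 3 did not pass (median -0.226). TNFAIP3, the ubiquitin-editing inhibitor, was at -0.85 ± 0.05 (edgeR adjusted p = 4.59e-12) and NFKBIA at -0.41 ± 0.05 (edgeR adjusted p = 6.38e-06). Of 16 transcription factors 3 were higher, 5 lower and 8 did not pass (median -0.132), with the AP-1 subunit gene FOSL1 at 1.03 ± 0.22 (edgeR adjusted p = 0.00150), NFKB1 at -0.35 ± 0.05 (edgeR adjusted p = 2.85e-05) and FOS at -0.80 ± 0.12 (edgeR adjusted p = 0.000933). Of 6 mRNA decay and stability genes 1 was lower, ZFP36, which destabilises AU-rich mRNAs, at -0.63 ± 0.07 (edgeR adjusted p = 4.48e-06), 0 were higher and 5 did not pass (median -0.13). Of 9 tested genes of the LPS receptor complex and its adaptors 3 were higher, 2 lower and 4 did not pass (median 0.055), with TLR4 at -0.25 ± 0.07 (edgeR adjusted p = 0.00727), which did not pass without WT replicate 1, and MYD88 at 0.30 ± 0.05 (edgeR adjusted p = 0.000117).

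The list called inducing cytokines held TNF, IL1A, IL1B, IL6, OSM, CSF1 and TGFB1 as tested genes, and the role of each was not tested. Of 7 tested, 2 were higher in KO vs WT, 0 lower and 5 did not pass (median 0.249, beside 10.2% of all genes called higher), with IL6 at 1.25 ± 0.18 and CSF1, the macrophage growth factor, at 0.41 ± 0.09 (edgeR adjusted p = 1.96e-05 and 0.00370). In KO LPS vs WT LPS 5 were higher, 0 lower and 2 did not pass (median 0.568), beside 15.6% of all genes called higher. In that comparison IL6 was at 0.79 ± 0.07 and CSF1 at 0.85 ± 0.10 (edgeR adjusted p = 4.48e-08 and 3.20e-05). IL6 averaged 69.6 CPM in KO LPS BMS, 252 CPM in KO LPS, 146 CPM in WT LPS, 2.80 CPM in KO and 1.17 CPM in WT, the same order of groups as for CCL2.

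With LPS the lists of NF-kB inhibitors and of inducing cytokines were higher for the most part. In KO LPS vs KO all 7 genes of the NF-kB inhibitor list were higher, with a median of 3. In WT LPS vs WT 5 of them were higher, 0 lower and 2 did not pass. Of all genes 24.5% were called higher in KO LPS vs KO and 28.9% in WT LPS vs WT. Among the 7 tested inducing cytokines 6 were higher in each of the LPS responses (medians 2.30 and 3.15), with IL1B at 5.35 ± 0.06 in wild-type and 5.26 ± 0.06 in knockout cells (edgeR adjusted p = 4.46e-25 and 6.53e-25). TGFB1 was lower in WT LPS vs WT, at -0.83 ± 0.23 (edgeR adjusted p = 0.0153). In KO LPS BMS vs KO LPS, where 22.3% of all genes were called higher and 25.5% lower, 0 of the 7 cytokines were higher, 4 were lower and 3 did not pass (median -0.445), with IL6 at -1.86 ± 0.08 (edgeR adjusted p = 6.02e-14) and OSM, the gp130 cytokine oncostatin M, at -1.49 ± 0.12 (edgeR adjusted p = 1.41e-09). Of the transcription factors 6 were higher, 4 lower and 6 did not pass with the compound (median 0.043), with IRF1 at 1.00 ± 0.07 (edgeR adjusted p = 3.21e-10), NFKB1 at 0.36 ± 0.06 (edgeR adjusted p = 2.90e-05), STAT3 at -0.38 ± 0.06 (edgeR adjusted p = 6.58e-06) and FOS at -1.11 ± 0.15 (edgeR adjusted p = 0.000236).

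The other CC chemokines of chromosome 17 were set beside the 4, and the shares of all genes called higher were 10.2% in KO vs WT, 28.9% in WT LPS vs WT and 24.5% in KO LPS vs KO. Of 9 tested, 1 was higher in KO vs WT, 0 lower and 8 did not pass, with a median of 0. The 1 that rose was CCL5, which attracts T cells, at 0.32 ± 0.09 (edgeR adjusted p = 0.00955), which did not pass without KO replicate 1. All 9 were higher in each LPS response, with medians of 4.27 in wild-type and 4.07 in knockout cells. With the compound 0 were higher, 6 lower and 3 did not pass (median -0.682), beside 22.3% of all genes called higher and 25.5% lower. CCL5 was at -1.13 ± 0.08 with the compound (edgeR adjusted p = 1.47e-10). Of 15 tested chemokines of neither set 8 were higher in KO vs WT, 1 lower and 6 did not pass (median 0.599), with the neutrophil attractant CXCL1 at 1.20 ± 0.08 (edgeR adjusted p = 1.94e-09) and CCL17, a CCR4 ligand, at -2.76 ± 0.33 (edgeR adjusted p = 1.11e-06). In KO LPS vs WT LPS 10 of these were higher, 1 lower and 4 did not pass (median 0.568), against 4, 2 and 3 of the 9 CC chemokines of chromosome 17 (median -0.043). Of all genes 15.6% were called higher and 15.0% lower in that comparison. With the compound 2 of the 15 were higher, 7 lower and 6 did not pass (median -0.418), with CXCL5 at -1.24 ± 0.08 (edgeR adjusted p = 1.05e-10).

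The physical neighbours were taken within 1 Mb on either side of the stretch that holds the 4. Of 53 annotated genes 30 had no count in any library and 11 were tested. In KO vs WT 1 of the 11 was higher, 0 lower and 10 did not pass (median -0.032), a share near the 10.2% of all genes called higher. The 1 was SLFN11, a DNA damage response gene 1095.1 kb from the start of CCL2, at 0.24 ± 0.06 (edgeR adjusted p = 0.00557), which did not pass without KO replicate 3.

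CCL1, a CCR8 ligand, is the nearest expressed neighbour, with 1717 bases between it and CCL13. Its level was 6.46 and 5.86 CPM in KO LPS BMS, 8.77 and 8.89 CPM in KO LPS, 5.12 and 4.94 CPM in WT LPS, 0.387, 0.447 and 0.860 CPM in KO, and 0.378, 0.257 and 0.309 CPM in WT. CCL1 rose with LPS by 3.97 ± 0.28 in wild-type and 3.92 ± 0.24 in knockout cells (edgeR adjusted p = 5.12e-11 and 5.17e-12), against 0.33 and 0.56 for CCL13. In KO vs WT it differed by 0.86 ± 0.40, which did not pass (edgeR adjusted p = 0.140). CCL11, between CCL7 and CCL8, had 0 counts in all 12 libraries, which allows up to 0.154 to 0.236 CPM in a library.

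In KO LPS BMS vs KO LPS, 2 neighbours were higher, 4 lower and 5 did not pass (median -0.204), beside 22.3% of all genes called higher and 25.5% lower. RFFL, a ubiquitin ligase, was at 1.16 ± 0.08 and SLFN5 at 1.12 ± 0.07 (edgeR adjusted p = 9.52e-11 and 9.44e-11), and the recombination gene RAD51D was at -0.83 ± 0.13 and SLFN11 at -1.12 ± 0.08 (edgeR adjusted p = 1.74e-05 and 3.90e-10). CCL1, at -0.52 ± 0.19 (edgeR adjusted p = 0.0282), did not pass with DESeq2, with no filter on low counts, or without any 1 of the 4 libraries compared.

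**Figure D5:**
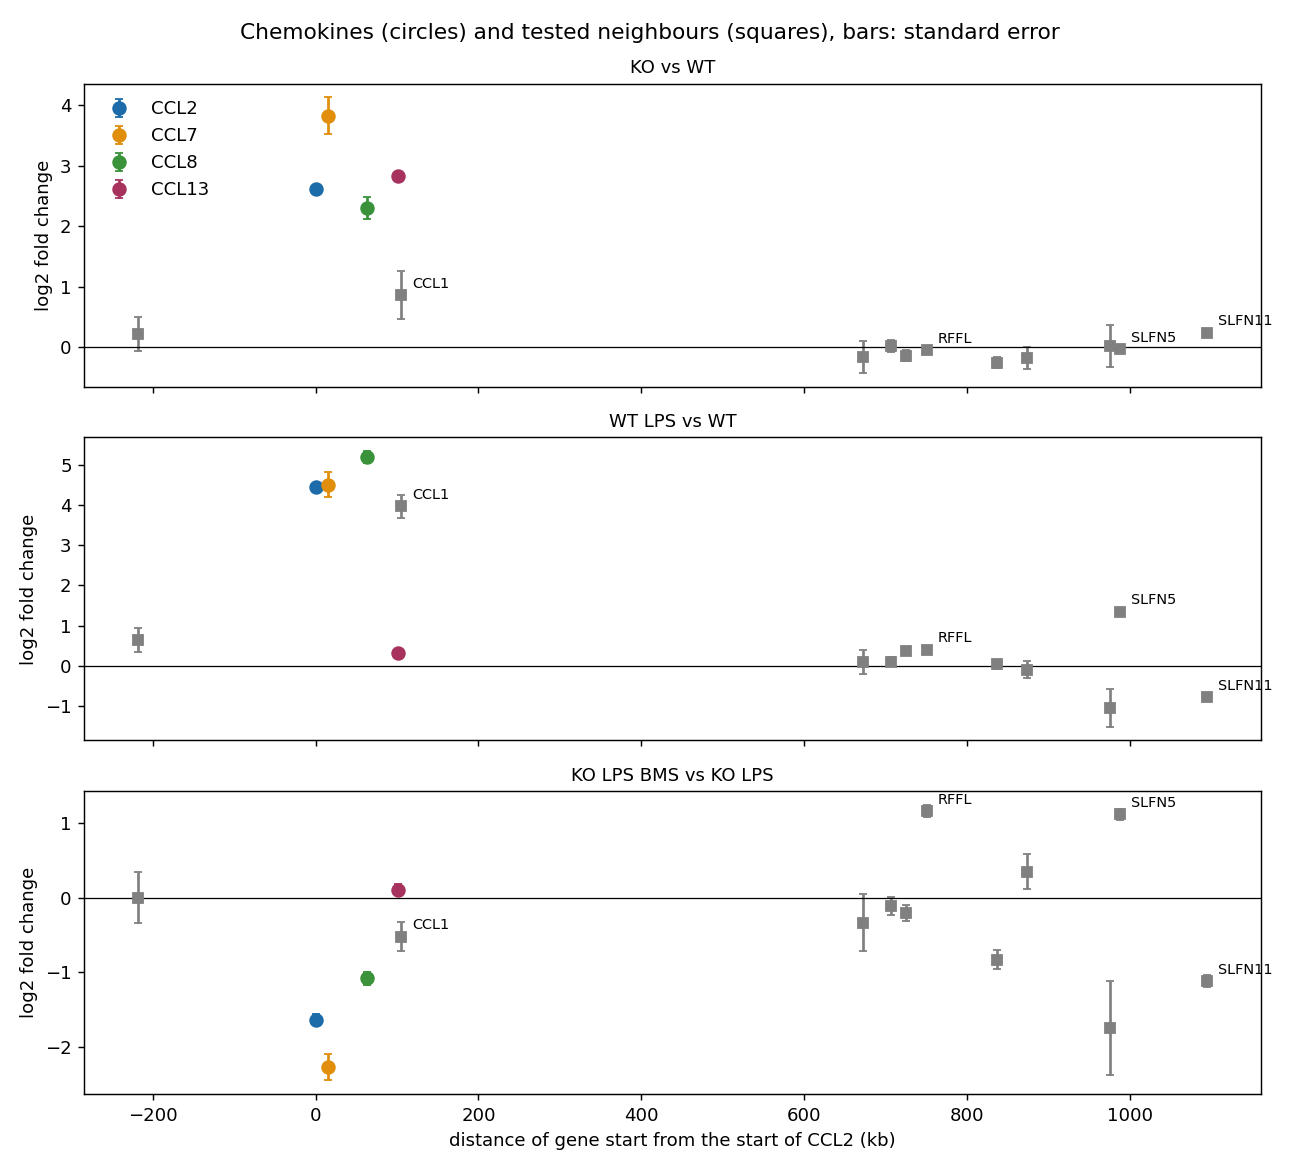
Log2 fold changes, with bars of 1 SE, of the 4 chemokines (circles) and of the 11 tested neighbours (squares) by distance of the gene start from that of CCL2 in kb, in 3 comparisons. In KO vs WT the 4 chemokines lie at 2.30 or above and all squares below 1, while in WT LPS vs WT CCL1 lies with CCL2, CCL7 and CCL8, and CCL13 near 0.

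The genes outside the set whose log levels were most like each member over the 12 libraries were found among 10576 genes with a mean of at least 5 CPM. For CCL2 they were S100A9 (r = 0.988), the cell-cycle inhibitor gene CDKN1A (0.987) and CHI3L1 (0.984), a secreted chitinase-like protein. S100A9 averaged 287 CPM in KO LPS BMS, 602 CPM in KO LPS, 407 CPM in WT LPS, 258 CPM in KO and 76.8 CPM in WT. For CCL7 they were MCTP2 (0.982), AP1S2 (0.973) and CDS1 (0.970), and for CCL8 NOL4L (0.989), ACVR1B (0.988), an activin receptor, and the chemokine scavenger ACKR3 (0.988). ACKR3 averaged 17.1 CPM in KO LPS BMS, 26.5 CPM in KO LPS, 13.2 CPM in WT LPS, 0.818 CPM in KO and 0.158 CPM in WT.

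For CCL13 the most alike were LILRB5 (r = 0.995), an inhibitory leukocyte receptor, ADGRG3 (0.994), an adhesion G protein-coupled receptor, and the desmosomal gene DSP (0.984). LILRB5 averaged 46.6 CPM in KO LPS BMS, 43.4 CPM in KO LPS, 17.1 CPM in WT LPS, 35.4 CPM in KO and 14.8 CPM in WT. Like CCL13 it was higher in every knockout group than in either wild-type group, which follows from its choice by likeness. Ranked by Spearman's rho in place of Pearson's r, 2 of the 12 named genes were again among the 3 most alike.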

How the data were processed

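Total RNA of 12 cultured libraries was extracted with TRIzol and made into libraries with a NEBNext Ultra RNA kit, per the labels' protocols. The deposited values are unnormalised counts of reads, with genes in rows and libraries in columns of 1 table. The submitters' processing notes name CASAVA 1.7, Cufflinks and GRCh38, whereas no source used here gives the aligner, the counter, the annotation or whether strand was used. Groups and replicate numbers came from the sample titles. The members and the gene lists were chosen with earlier results of these data known.

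Of 57992 IDs, 56948 took a symbol from a table of gene names, 440 from GENCODE release 29 and 604 had none. All 12 libraries entered 1 quasi-likelihood fit (edgeR 4.0.16, R 4.3.3, filterByExpr, TMM, robust, 1 mean per group). Calls are under 0.05 after Benjamini-Hochberg adjustment of 2-sided p-values over the 16022 genes tested. Groups of 2 libraries borrow their spread from the whole fit. The SE of a log2 fold change is its size divided by the square root of its F value in that fit. CPM values use TMM-scaled library sizes, and likeness was Pearson's r of log2 CPM with a prior count of 2. The named genes outside the set were all receptors, scavengers and N-terminal enzymes, in each other list and comparison the 2 most strongly called genes of each direction by adjusted p, the neighbours with a mean of at least 1 CPM, and the 3 genes most like each member. The text gives part of them, and some results are not reported here. Promoter sequences are from RefSeq (GRCh38.p14). The planned protein alignment was replaced by an alignment of coding sequences from GENCODE release 29 (Biopython 1.88). The fit was tested on simulated data. Alternatives were DESeq2 1.42.0, other scalings, no filter on low counts, only the groups compared, a replicate block, and leaving out each library.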

Additional observations from a re-analysis of the deposited data

Results flagged for a closer look

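The LPS response of CCL2 was smaller on the log2 scale in knockout than in wild-type cells, with a fitted interaction of -1.76, and this difference between the genotypes is what drew attention to it. CCL2 averaged 2642 CPM in KO LPS and 411 CPM in KO, against 1465 CPM in WT LPS and 67.2 CPM in WT. The interaction of CCL2 ranged from -1.82 to -1.68 when single libraries were left out. CCL2 was chosen with its genotype difference and its LPS response in these libraries known, so the value is a description and not a test, and the cause was not tested.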

How the results depend on the processing

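Of 504 recomputed chemokine fold changes, 495 kept their direction and their side of the threshold, 1 no longer passed, 6 newly passed and 2 changed sign. Without single libraries, the interaction ranged from -2.19 to -0.64 for CCL7, from -0.33 to 0.0114 for CCL8 (above 0 without WT replicate 3) and from 0.0696 to 0.35 for CCL13, and CCL13 in KO LPS BMS vs KO LPS ranged from -0.0122 to 0.27 (below 0 without KO LPS replicate 2). The interaction of CCL7 passed at -1.09 with DESeq2 and at -1.05 with no filter on low counts. CCL13 in WT LPS vs WT was 0.0477 with library totals only and no longer passed. The count of called genes in KO LPS vs WT LPS was 2728 when only those groups were fitted and 3005 to 5549 without single libraries, against 4900 in the fit of all. For the interaction it was 1162 to 3079 without single libraries, against 1920. Under library totals 65.3% of the interaction calls were higher, and with RLE factors 43.5%, against 53.5%. The causes of these changes were not tested.

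CPM on library totals were 0.877 to 1.11 times those given, and 13 of the 20 group levels of the chemokines moved by over 1 SD. The order of the groups was kept for all 4 chemokines. Shares of CCL2 on counts with no length were 64.4% in KO and 67.8% in WT. Of 4032 recomputed list counts 268 moved by over 1.5 times.

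Libraries with the same replicate number did not deviate together (r of deviations from -0.143 to 0.097, none over 0.1), and the numbers were not used to pair them. The lowest values were -0.143 in KO LPS vs WT LPS and -0.128 in KO LPS BMS vs KO LPS. In groups of 2 libraries the deviations mirror each other, so opposite-numbered libraries have the same r with its sign turned. No crossed pairing was fitted because the labels tie no libraries. In KO vs WT each of the 3 KO libraries correlated best with the WT library of its own number, at 0.007 to 0.065. With the replicate number as a block, 3091 genes were called in KO vs WT, against 3463, and no call of the 4 chemokines changed. At this depth the WT level of CCL7, on 5, 22 and 4 counts, is the least precise value.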
